A study of Arabidopsis thaliana with 8 samples.

Results

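UDP-glycosyltransferases (UGTs) move a sugar from a UDP-sugar onto small acceptor molecules such as hormones, flavonoids, phenolic acids, sterols and foreign compounds. The added sugar usually makes the acceptor more soluble and less active, and lets it be stored in the vacuole, so that in leaves these enzymes take part in hormone balance, defence, pigment formation and detoxification. The genes of this report are those whose probe set on the Arabidopsis ATH1 GeneChip carries a single gene symbol made of UGT and a number. A probe set is a group of short probes that together measure 1 transcript. The rule found 47 genes with 1 probe set each, of 22746 probe sets tested, 13513 of which had a single symbol. The symbols and locus tags of all 47 are the same in RefSeq (TAIR10.1 table), which lists 58 genes of such a symbol, and 11 of those have no probe set under the rule. Another 3 probe sets name a UGT together with a second gene and were left out, because the 2 genes cannot be told apart on them. RefSeq synonyms place UGT79B1, UGT79B6, UGT72B1 and UGT80A2 on 4 further probe sets that the platform names otherwise, and these are given below only within the lists of known roles.

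Leaf RNA was measured on 8 arrays in 4 groups of 2, named by genotype and day. Wild type plants (WT) and plants that carry VaNAC26 (OE) were grown in soil for 21 d, watered and then left dry, and were sampled at the start (WT 0d, OE 0d) and on day 5 without water (WT 5d, OE 5d). VaNAC26 is a NAC transcription factor gene of the wild grapevine Vitis amurensis, driven in the OE plants by the 35S promoter, which is active in most tissues, and each OE sample pooled leaves of 3 transgenic lines. No array holds plants kept watered until 5 d, so on these arrays drought cannot be told apart from plant age or sampling day. Nothing in the sources ties the 2 replicates of a group to separate plants, so the p-values reflect only how far these samples scatter, which may be technical scatter. A log2 fold change is the difference between the mean log2 intensities of 2 groups, fitted with limma over all 8 arrays, and is given with its standard error (SE). The words rise and fall are kept for genes whose p-value was under 0.05 after Benjamini-Hochberg adjustment across all 22746 probe sets. The study's own threshold, a fold change over 2 or under 0.5 at an unadjusted p under 0.05, was also counted in this fit. The interaction is the drought response of OE minus that of WT.

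The arrays had medians between 36.2 and 38.2. The OE 5d pair was the least alike, with 1294 probe sets more than 2-fold apart, against 79 to 143 in the other pairs, and 4 of the UGT genes were among them (UGT73D1, UGT76B1, UGT78D1 and UGT87A2), against 0 in each other pair. Of 13 leaf photosynthesis markers, 3 had a named probe set (LHCB4.1, PRK and RCA), all bright on every array. PRK, an enzyme of the Calvin cycle, read 1856 on OE 5d replicate 1 and between 3605 and 4603 on the other arrays. RCA, which activates Rubisco, read 6992 on OE 5d replicate 1 and between 8599 and 9859 elsewhere. LHCB4.1 was not lowest on that array, with 7807 there and between 7166 and 8617 elsewhere. Of 5 root markers only PYK10 had a named probe set. It read 139 and 101 in WT 0d and 61.7 and 40.5 in OE 0d. At 5 d it read 11.3 and 10.4 in WT and 25.2 and 13.6 in OE. Of 6 flower and pollen markers only TUA1 had a named probe set, at 144 to 303 over the arrays, and of 5 seed markers none. In the lists below a gene is called measured if a probe set was found under its name. The annotation does not list 8730 probe sets, so other listed genes may still be on the array. What part these differences have in the results below was not tested.

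Most UGT transcripts gave a low signal in these leaves. An intensity under 32 is called dim, and was treated as near background by a choice made here, since background was not measured. Of the 47 genes, 24 were under it on all 8 arrays, 15 were at or above it on all, and 8 lay on both sides. In all, 57.4% of the UGT values were under 32, against 47.8% of the values of all probe sets. The UGT values ran from 3.79 to 1113. Probe sets differ in how brightly they report a transcript, so these intensities are no order of abundance. The 4 brightest probe sets were those of UGT88A1, UGT87A2, UGT74B1 and UGT78D2. UGT88A1 (AT3G16520) varied little, between 755 and 1012 over the 8 arrays, and had log2 fold changes of -0.13 (SE 0.14) with drought in WT and -0.28 (SE 0.14) in OE.

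**Figure D1:**
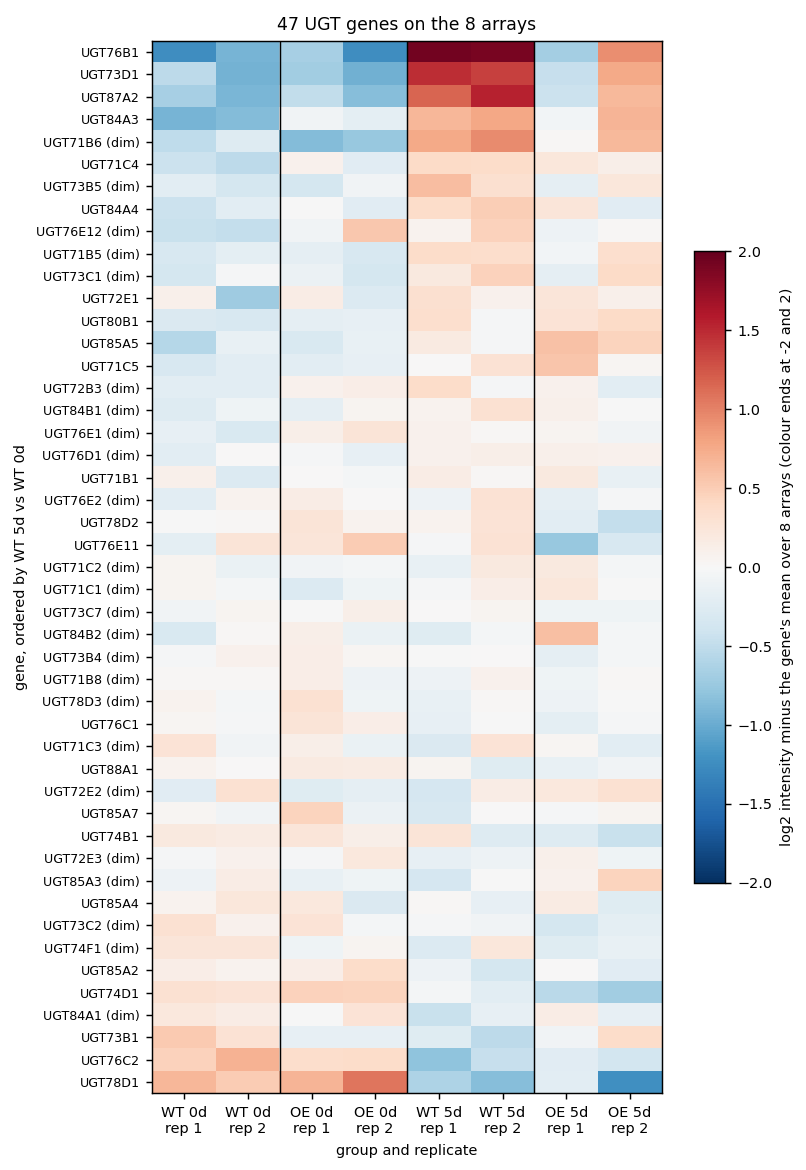
Log2 intensity of the 47 UGT genes on the 8 arrays (columns, by group and replicate), each gene centred on its own mean and ordered from the highest to the lowest log2 fold change of WT 5d vs WT 0d. Genes under 32 on all arrays carry the word dim. The strongest colours lie in the first rows, where both WT 5d arrays are high, and in the last rows, where both are low, and most of the middle rows are pale.

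In WT, drought was followed by a rise of 10 UGT transcripts and a fall of 3, while the other 34 did not pass the test. The risers were UGT76B1, UGT73D1, UGT87A2, UGT84A3, UGT71B6, UGT71C4, UGT73B5, UGT84A4, UGT76E12 and UGT71B5, with log2 fold changes from 2.995 down to 0.62. The genes that fell were UGT78D1, UGT76C2 and UGT73B1, with log2 fold changes of -1.32, -1.21 and -0.78. The risers were 21.3% of the UGT genes, where 15.7% of all probe sets rose, and the fallers 6.38%, where 14.8% of all fell. Among the 20 UGT genes with a mean at or above 32 the shares were 15% higher and 15% lower, against 24.3% and 21.3% of all probe sets of that brightness. The median log2 fold change was 0.06 over the UGT genes and 0.01 over all probe sets, and the median size of the change was 0.28 and 0.29. By these medians the UGT genes moved about as much as the array as a whole. In these bulk samples fewer cells of a type and less RNA per cell cannot be told apart. The study's threshold gave 5 higher (UGT71B6, UGT73D1, UGT76B1, UGT84A3 and UGT87A2) and 2 lower (UGT76C2 and UGT78D1), which is 10.6% and 4.26%, against 7.38% and 8.1% of all probe sets. Without WT 0d replicate 1 the adjusted test gave 7 higher, with UGT72E1 among them, and 1 lower (UGT76C2), where 9.19% and 7.89% of all probe sets were called, and the calls of UGT71B5, UGT73B5, UGT76E12, UGT84A4, UGT73B1 and UGT78D1 were lost. Without WT 0d replicate 2 the counts were 6 and 2 (9.18% and 9.43% of all), and leaving out WT 5d replicate 2 made them 8 and 1 (8.68% and 8.33% of all). With intensities under 32 set to 32, 4 genes were higher (UGT71C4, UGT76B1, UGT84A3 and UGT87A2) and 2 lower (UGT74D1 and UGT76C2). The share of all probe sets called with that setting is not given here, so these counts cannot be set against the whole array.

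UGT76B1 (AT3G11340) rose in WT from dim values. Its enzyme glucosylates isoleucic acid, salicylic acid and N-hydroxypipecolic acid, and thereby lowers the active pool of these defence compounds. Its intensities were 5.64 and 6.96 in WT 0d, 8.36 and 5.63 in OE 0d, 50.4 and 49.5 in WT 5d, and 8.33 and 25.2 in OE 5d. Only the WT 5d arrays exceeded 32, OE 5d replicate 1 lay within the range of the arrays before drought, and OE 5d replicate 2 lay between them and WT 5d. The log2 fold change of WT 5d vs WT 0d was 2.995 (SE 0.45, limma adjusted p = 0.00218). Because both WT 0d values are dim, the size of this change is uncertain. With intensities under 32 set to 32 it was 0.64 (limma adjusted p = 0.00012). In OE the change was 1.08 (SE 0.45, limma adjusted p = 0.162), which did not pass the test, and it rested on which OE 5d array was used. Without replicate 1 it was 1.88 and passed (limma adjusted p = 0.00107), and without replicate 2 it was 0.28 (limma adjusted p = 0.508).

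UGT87A2 and UGT73D1 had a pattern close to that of UGT76B1. UGT87A2 (AT2G30140), which is known to influence flowering time, read 243 and 204 in WT 0d, 274 and 212 in OE 0d, 857 and 1113 in WT 5d, and 286 and 601 in OE 5d. All its arrays were well above 32, and WT 5d lay above all the others. It rose by 2.13 on the log2 scale in WT (SE 0.33, limma adjusted p = 0.00243) and had a value of 0.78 in OE (SE 0.33, adjusted p = 0.166). UGT73D1 (AT3G53150) read 8.72 and 6.51 in WT 0d, 7.74 and 6.43 in OE 0d, 34.8 and 32.5 in WT 5d, and 9.12 and 21.2 in OE 5d. The WT 5d arrays were again the highest, although barely above 32. Its log2 fold change was 2.16 in WT (SE 0.35, limma adjusted p = 0.00303) and 0.98 in OE (SE 0.35, adjusted p = 0.111). With intensities under 32 set to 32 the change in WT was 0.07 and no longer passed (limma adjusted p = 0.289).

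**Figure D2:**
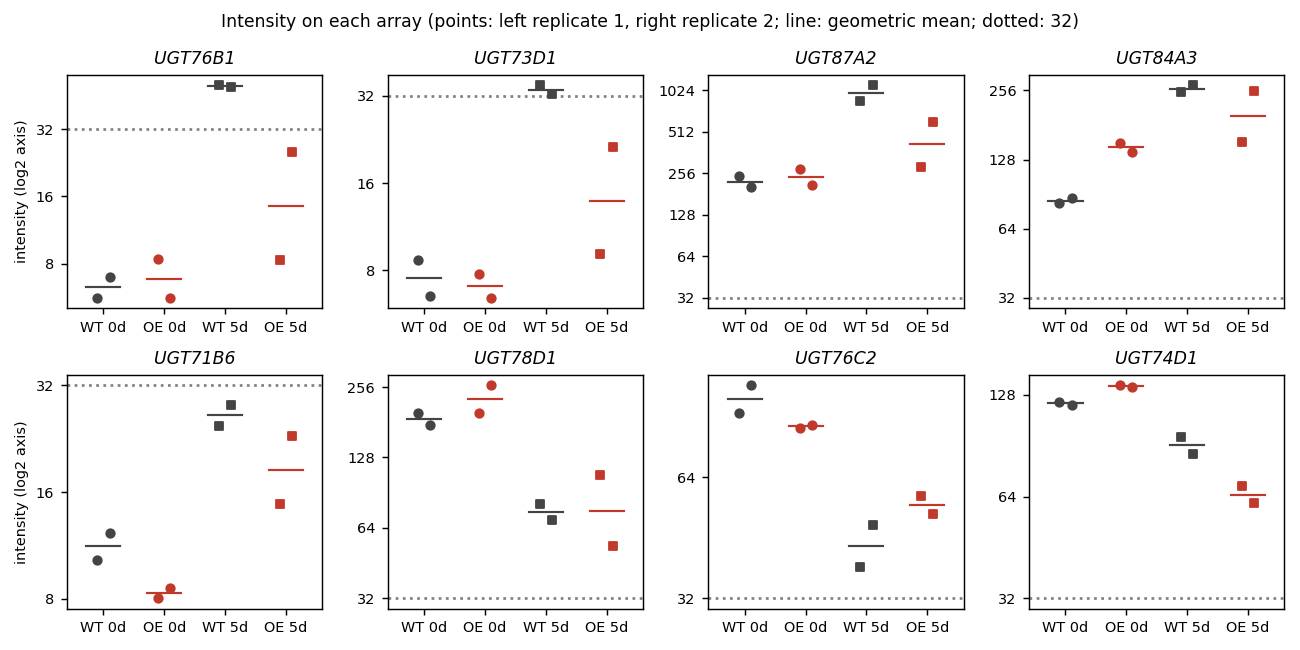
Intensity (log2 axis) of 8 UGT genes on each array, with WT in grey and OE in red, circles for 0d and squares for 5d, replicate 1 left and replicate 2 right, a line at the geometric mean of the pair and a dotted line at 32. For UGT76B1, UGT73D1 and UGT87A2 both WT 5d points stand above all others and the OE 5d points lie apart, and UGT74D1 is lowest on the OE 5d arrays.

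Over the 8 arrays, Pearson's r with the log2 intensity of UGT76B1 was 0.985 for UGT87A2, 0.982 for UGT73D1 and 0.966 for UGT71B5, the 3 most alike of the other UGT genes. Among all probe sets with 1 symbol the 5 most alike were those of AT5G15870 (0.995) and of AT2G43850, AT1G12290, AT1G78200 and AT5G59680 (0.99 each). These coefficients describe 8 arrays in which the 2 WT 5d arrays and the unequal OE 5d pair set most of the range. The probe set of AT5G15870, for instance, read 82.9 and 83.3 in WT 0d, 88.6 and 78.7 in OE 0d, 178 and 186 in WT 5d, and 95.7 and 145 in OE 5d. It thus shares with UGT76B1 the lower of its OE 5d values on replicate 1.

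Among UGTs that act on phenylpropanoids, those of the UGT84A group make glucose esters of hydroxycinnamic acids and the UGT72E group glucosylates monolignols and related aldehydes. UGT84A3 (AT4G15490) rose in WT, with 83.1 and 86.7 in WT 0d, 152 and 138 in OE 0d, 251 and 270 in WT 5d, and 153 and 254 in OE 5d. The WT pairs did not overlap, and OE 0d lay between them. Its log2 fold change with drought was 1.62 in WT (SE 0.22, limma adjusted p = 0.00171) and 0.45 in OE (SE 0.22, adjusted p = 0.248). UGT84A4 (AT4G15500), the next gene in the RefSeq order, rose from 19.3 and 22.5 to 33.5 and 36.8 in WT, by 0.75 on the log2 scale (limma adjusted p = 0.0181). UGT84A1 (AT4G15480), on the other side, was dim on every array and had a value of -0.49 (adjusted p = 0.0712). Of the list of 8 phenylpropanoid and monolignol UGTs 7 had a probe set. In WT 3 of these rose, UGT84A3, UGT84A4 and UGT72B1, where 15.7% of all probe sets rose. UGT72B1 glucosylates chlorinated phenols and monolignols and changed by 0.58 (limma adjusted p = 0.0161). UGT72E1, UGT72E2 and UGT72E3 did not pass the test, with values of 0.50, -0.14 and -0.17. The median over the 7 was 0.50 in WT and 0.14 in OE, against 0.01 and -0.01 over all probe sets. In OE 0 of the 7 passed.

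Among UGTs of abscisic acid (ABA), the hormone of the water deficit response, UGT71B6 rose in both genotypes. No other UGT gene did with all arrays in the fit, but without OE 5d replicate 1 UGT71B5, UGT73D1, UGT76B1, UGT84A3 and UGT87A2 rose in both as well. Its enzyme forms the glucose ester of ABA, a storage form. UGT71B6 (AT3G21780) read 10.3 and 12.3 in WT 0d, 8.04 and 8.60 in OE 0d, 24.6 and 28.3 in WT 5d, and 14.8 and 23.0 in OE 5d. All arrays at 5 d lay above all arrays at 0 d, but all 8 were under 32, so that with intensities under 32 set to 32 the change was 0 in both genotypes. The log2 fold change was 1.23 in WT (SE 0.22, limma adjusted p = 0.00413) and 1.15 in OE (SE 0.22, adjusted p = 0.0135). With the 4 OE arrays alone the OE value did not pass (limma adjusted p = 0.082). UGT71C5 (AT1G07240), which makes the same ester and was above 32 on every array, read 67.6 and 72.7 in WT 0d, 72.7 and 75.0 in OE 0d, 84.4 and 103 in WT 5d, and 124 and 86.3 in OE 5d. The pairs at 5 d were higher, but its values of 0.41 in WT and 0.49 in OE did not pass the test (limma adjusted p = 0.16 and 0.147). UGT73B1 (AT4G34138), placed in the list for activity toward ABA, went down in WT, from 68.8 and 58.5 to 40.8 and 33.3, by a log2 fold change of -0.78 (SE 0.19, limma adjusted p = 0.015). In OE it started at 42.7 and 43.1 and read 45.7 and 61.7 at 5 d, a value of 0.31 (adjusted p = 0.349). Of 6 listed ABA UGTs 5 were measured, 1 rose and 1 fell in WT, and 1 rose in OE.

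Of the list linked to salicylic acid and defence, 6 of 10 UGTs were measured. In WT 3 of these rose, UGT76B1, UGT73D1 and UGT73B5, where 15.7% of all probe sets rose, while 0 passed in OE. UGT73B5 was dim on every array, and UGT76B1 and UGT73D1 were dim at 0 d. With intensities under 32 set to 32, only UGT76B1 of the 3 passed in WT. UGT73B5 (AT2G15480), which takes part in responses to pathogens and oxidative stress, read 13.0 and 11.8 in WT 0d and 23.2 and 19.0 in WT 5d, a rise of 0.76 on the log2 scale (limma adjusted p = 0.0189), and 11.9 and 14.4 in OE 0d and 13.3 and 17.8 in OE 5d. UGT74F1, which glucosylates salicylic acid, was under 10 on every array and had a value of -0.26 in WT. The list's median was 0.48 in WT and 0.21 in OE, against 0.01 and -0.01 over all probe sets. The xenobiotic and oxidative stress list, with 4 of 7 measured, had 2 risers in WT, UGT73B5 and UGT72B1, which other lists hold too. UGT71C4 (AT1G07250), above 32 on every array and in none of the lists, rose from 107 and 101 to 188 and 186 in WT (0.85, SE 0.15, limma adjusted p = 0.00424), and in OE went from 154 and 123 to 169 and 156 (0.24, adjusted p = 0.364). UGT71B5 and UGT76E12, both under 14 on all arrays, rose by 0.62 and 0.73 on the log2 scale in WT (adjusted p = 0.0231 and 0.0373).

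On the lower side, UGT78D1 and UGT76C2 fell in both genotypes, UGT73B1 (above) in WT, and UGT74D1 and UGT76E11 in OE. UGT78D1 (AT1G30530) adds rhamnose to the 3 position of flavonols. It read 198 and 176 in WT 0d, 198 and 260 in OE 0d, 81.0 and 69.0 in WT 5d, and 107 and 53.4 in OE 5d, so that all arrays at 5 d were below all at 0 d. Its log2 fold change was -1.32 in WT (SE 0.30, limma adjusted p = 0.0127) and -1.59 in OE (SE 0.30, adjusted p = 0.0143). UGT78D2, which adds glucose to flavonols and anthocyanidins, kept between 196 and 238 in WT, and went from 235 and 206 to 170 and 141 in OE (-0.51, adjusted p = 0.0707). UGT78D3 was dim, with values of -0.08 and -0.17. In the flavonoid and anthocyanin list 5 of 11 were measured and UGT78D1 alone fell, in each genotype. Over all probe sets 14.8% fell in WT and 6.53% in OE. The list median was -0.08 in WT and -0.51 in OE, against 0.01 and -0.01 over all probe sets. Of 16 genes of flavonoid synthesis only DFR, an enzyme of the anthocyanin branch, had a named probe set. It fell in WT, from 69.6 and 60.2 to 13.5 and 7.01 (log2 fold change -2.74, adjusted p = 0.0315), and in OE its value was -1.48 (adjusted p = 0.277).

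UGT76C2 (AT5G05860) attaches glucose to ring nitrogens of cytokinins and thereby inactivates them. It read 92.5 and 108 in WT 0d, 85.0 and 86.2 in OE 0d, 38.3 and 48.5 in WT 5d, and 57.4 and 51.8 in OE 5d. Every array at 5 d was below every array at 0 d, and the fall was -1.21 in WT (SE 0.16, limma adjusted p = 0.00152) and -0.65 in OE (SE 0.16, adjusted p = 0.036). UGT76C1 (AT5G05870), its neighbour with the same activity, stayed between 43.1 and 59.2 on all arrays, with values of -0.09 in WT and -0.31 in OE. The cytokinin list had 3 of 5 measured, and UGT76C2 was its single call in each genotype. Over all probe sets 14.8% fell in WT and 6.53% in OE.

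In OE, 2 UGT genes rose with drought (UGT71B6 and UGT85A5) and 4 fell (UGT78D1, UGT74D1, UGT76E11 and UGT76C2). These were 4.26% and 8.51% of the UGT genes, where 7.06% of all probe sets rose and 6.53% fell. Of the 20 UGT genes with a mean at or above 32 the shares were 5% and 20%, against 11.5% and 10.8% of all probe sets of that brightness. The study's threshold gave UGT71B6 and UGT76B1 higher and UGT74D1 and UGT78D1 lower (4.26% each, against 3.87% and 2.43% of all). With the 4 OE arrays alone, only UGT74D1 of the called genes passed (limma adjusted p = 0.0496). The others had limma adjusted p-values from 0.0755 (UGT85A5) to 0.0941 (UGT78D1). The OE counts rest on single arrays: without OE 0d replicate 1 they were 0 higher and 1 lower (UGT74D1), where 1.84% and 1.19% of all probe sets were called, and without OE 0d replicate 2 they were 0 and 0, where 0.892% and 0.352% were. Without OE 5d replicate 1 they were 7 and 4 (11.7% and 13.1% of all), and without OE 5d replicate 2 they were 3 and 3 (7.81% and 7.65% of all). The share of all probe sets called thus moved with the array left out, too.

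UGT74D1 (AT2G31750), which glucosylates auxins, had the smallest adjusted p of the UGT genes in OE. Its intensities were 122 and 119 in WT 0d, 137 and 135 in OE 0d, 96.1 and 85.6 in WT 5d, and 68.6 and 61.4 in OE 5d. The replicates were close in every group, and OE 5d lay below all other arrays. The log2 fold change was -1.07 in OE (SE 0.13, limma adjusted p = 0.00413) and -0.41 in WT (SE 0.13, adjusted p = 0.0506), just short of the test there. UGT76E11 (AT3G46670), a flavonoid glucosyltransferase, went from 51.2 and 61.3 to 25.5 and 34.4 in OE (-0.92, SE 0.22, limma adjusted p = 0.0316), and read 37.9 and 51.5 in WT 0d and 42.3 and 52.8 in WT 5d (0.10, adjusted p = 0.805). UGT85A5 (AT1G22370), which raises salt tolerance when expressed in tobacco, went from 37.6 and 42.0 to 69.7 and 63.2 in OE (0.74, SE 0.18, adjusted p = 0.0311), and from 31.3 and 42.1 to 52.5 and 45.8 in WT (0.43, adjusted p = 0.107). In both genotypes the pairs of UGT85A5 did not overlap. The auxin list had 3 of 7 measured, with UGT74D1 lower in OE and 0 called in WT, and UGT84B1 and UGT84B2 were dim throughout. Over all probe sets 6.53% fell in OE.

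Several other UGT genes of known role did not pass a drought test. UGT74B1 (AT1G24100), which glucosylates thiohydroximates in glucosinolate synthesis, read 348 and 340 in WT 0d, 359 and 331 in OE 0d, 366 and 255 in WT 5d, and 255 and 222 in OE 5d, with log2 fold changes of -0.17 in WT and -0.53 in OE (limma adjusted p = 0.574 and 0.106). It was the measured one of 2 listed glucosinolate UGTs. UGT80B1 (AT1G43620), a sterol glucosyltransferase, was higher at 5 d in both genotypes without overlap, from 52.3 and 51.6 to 80.9 and 63.4 in WT and from 56.7 and 57.1 to 77.4 and 83.5 in OE. Its values of 0.46 and 0.50 had adjusted p-values of 0.0521 and 0.0692. The other measured sterol UGT of 3 listed, UGT80A2, read between 89.7 and 103 throughout. Of the 2 brassinosteroid UGTs 0 had a named probe set. Outside the UGTs, 1 of 16 listed genes of salicylic acid and N-hydroxypipecolic acid metabolism (BSMT1, dim on all arrays), 0 of 16 of glucosinolate synthesis and 1 of 13 of UDP-sugar supply (USP, -0.15 in WT and -0.21 in OE) had a named probe set, and neither gene passed a drought test.

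WT and OE drought responses come from different arrays and can be set side by side. Of the 16 UGT genes called in either genotype, 3 were called in both and in the same direction, UGT71B6, UGT76C2 and UGT78D1, which is 3 of the 13 called in WT and 3 of the 6 called in OE, and 0 were called in opposite directions. Another 10 were called in WT alone and 3 in OE alone. Over all probe sets more were called in WT too: 15.7% rose and 14.8% fell, against 7.06% and 6.53% in OE. The overlap over all probe sets is not given here, so the larger count in WT is not particular to the UGT genes. In OE the estimate was smaller in size for 12 of the 13 genes called in WT, and 9 of the 10 genes that rose in WT had an OE estimate above 0. Since these 13 were chosen by their WT values, those counts are a description. A call in 1 genotype alone does not show that the genotypes differ, which is what the interaction tests.

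**Figure D3:**
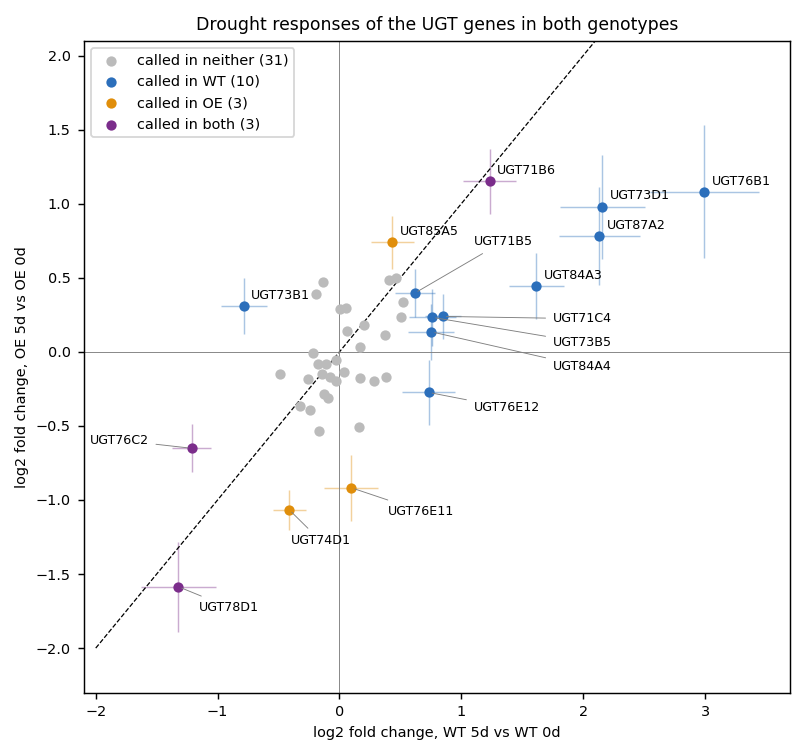
Log2 fold change with drought in OE (vertical axis) against WT (horizontal axis) for the 47 UGT genes, with standard errors as bars for the 16 called in either genotype and a dashed line where both are equal. UGT76B1, UGT73D1, UGT87A2 and UGT84A3 lie far to the right of the line, UGT71B6, UGT76C2 and UGT78D1 were called in both genotypes, and UGT74D1 and UGT76E11 lie below the line.

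In the interaction 0 UGT genes passed the adjusted test, with a smallest adjusted p of 0.172 from limma, and 0.0308% of all probe sets did. Without OE 5d replicate 2, however, UGT73B1 passed on the higher side and UGT73D1, UGT76B1, UGT76E11, UGT84A3 and UGT87A2 on the lower, where 9.72% and 8.56% of all probe sets passed. The estimate of UGT76B1 was -2.71 in that fit and -1.12 without OE 5d replicate 1, in which 0 UGT genes passed. At an unadjusted p under 0.05 there were 13 UGT genes (27.7%, against 14.8% of all), 11 with a negative estimate and 2 with a positive one. A negative estimate means that the log2 fold change with drought was lower in OE than in WT, and does not say which response was stronger. The study's threshold gave UGT73B1 higher (2.13%, against 3.12% of all) and 6 lower, UGT76B1, UGT87A2, UGT73D1, UGT84A3, UGT76E11 and UGT76E12 (12.8%, against 1.81% of all). Their estimates, as values and not as calls, were 1.09 for UGT73B1 (SE 0.27), -1.92 for UGT76B1 (SE 0.63), -1.35 for UGT87A2 (SE 0.47), -1.18 for UGT73D1 (SE 0.50), -1.17 for UGT84A3 (SE 0.32), -1.02 for UGT76E11 (SE 0.31) and -1.005 for UGT76E12 (SE 0.31). For UGT84A3, UGT76E12 and UGT73B1 the pairs before drought did not overlap either: OE 0d was the higher for UGT84A3 (152 and 138 against 83.1 and 86.7) and for the dim UGT76E12 (5.37 and 8.17 against 4.12 and 4.06), and the lower for UGT73B1 (42.7 and 43.1 against 68.8 and 58.5). For UGT76B1, UGT87A2 and UGT73D1 the pairs before drought overlapped, and the WT 5d arrays were above both OE 5d arrays.

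Before drought, 0 UGT genes differed between OE and WT at the adjusted threshold (smallest limma adjusted p = 0.396), and 0.0791% of all probe sets did. At an unadjusted p under 0.05 there were 5, 4 of them higher in OE, which is 10.6% against 8.41% of all. The study's threshold gave 0 in either direction, against 0.435% of all probe sets higher and 0.317% lower. UGT84A3 had the largest estimate of the 47, 0.77 (SE 0.22), and was chosen for mention after its values were seen. It passed in the fit of the 4 arrays of this comparison alone and in each fit with 1 of the OE 5d arrays left out, and over all alternatives its limma adjusted p ran from 0.0447 to 1. The median of the UGT genes in this comparison was 0.08, against -0.01 over all probe sets.

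At 5 d, 0 UGT genes differed between OE and WT at the adjusted threshold (smallest limma adjusted p = 0.185), where 0.0484% of all probe sets did. At an unadjusted p under 0.05 there were 11, 8 of them lower in OE (23.4%, against 15.9% of all). The study's threshold gave 0 higher, against 1.31% of all probe sets, and 3 lower, UGT76B1, UGT73D1 and UGT87A2 (6.38%, against 0.725% of all). Their log2 fold changes of OE 5d vs WT 5d were -1.78 (SE 0.45), -1.27 (SE 0.35) and -1.24 (SE 0.33). With intensities under 32 set to 32, UGT76B1 had an estimate of -0.64 and passed (limma adjusted p = 0.00044), both here and in the interaction. That setting puts all its arrays outside WT 5d at the same value and so removes the spread among them.

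These 3 genes are among the 4 UGT genes on which the OE 5d arrays differed by over 2-fold. Of the 10 genes that rose in WT, OE 5d replicate 1 was below both WT 5d arrays for 10 and replicate 2 for 9. Replicate 2 was above replicate 1 for 8. Since these 10 were chosen by high WT 5d values, the counts below WT 5d are a description and no support for a difference. Relative to the mean log2 intensity of WT 5d, UGT76B1 lay at -2.58 on replicate 1 and -0.99 on replicate 2, UGT73D1 at -1.88 and -0.66, and UGT87A2 at -1.77 and -0.70. Both arrays were thus below WT 5d for these 3, at unequal distance, but the 3 were picked by that same difference. UGT84A3 lay at -0.77 and -0.03, with replicate 2 inside the range of the WT 5d arrays. Without OE 5d replicate 2, the lower side of OE 5d vs WT 5d held 7 UGT genes (UGT71B6, UGT73B5, UGT73D1, UGT76B1, UGT76E11, UGT84A3 and UGT87A2) and UGT84B2 was higher. These are 14.9% and 2.13% of the UGT genes, where 10.3% of all probe sets were lower and 10.2% higher in that fit. Without OE 5d replicate 1, 0 were called, where 0.0484% of all probe sets were lower and 0.545% higher. In either fit the lone array is assumed to vary like the other groups. Of the 3 leaf photosynthesis markers with a named probe set, PRK and RCA were also lowest on OE 5d replicate 1. LHCB4.1 was not, with 7807 there and 7166 on WT 0d replicate 1. What part such differences have in the UGT values was not tested.

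**Figure D4:**
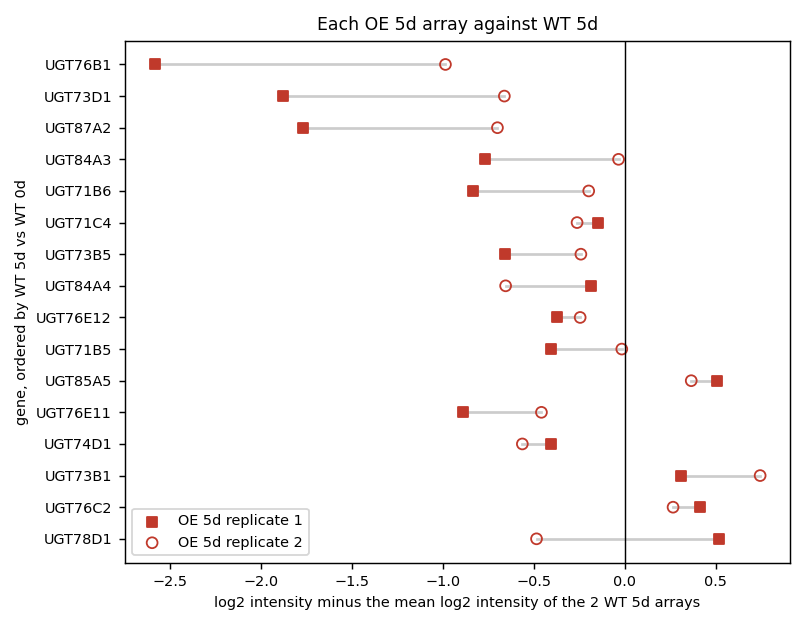
Log2 intensity on each OE 5d array minus the mean log2 intensity of the 2 WT 5d arrays, for the 16 UGT genes called in a drought comparison, ordered by WT 5d vs WT 0d. For the first 3 genes both arrays lie left of 0 and replicate 1 lies farther out, and UGT78D1 has its arrays on opposite sides of 0.

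The rule does not use the place of the genes, and many UGTs stand in tandem arrays. By RefSeq order, 24 of the 47 genes were directly next to another of them, in 14 pairs. In WT drought 1 pair was called together (UGT84A3 and UGT84A4, both higher), in 6 pairs 1 of the 2 genes was called, in 7 neither, and in 0 were the 2 genes called in opposite directions. Neighbours could lie far apart in response: UGT73D1 had a log2 fold change of 2.16 and UGT73C7 beside it 0.04, UGT84A3 had 1.62 and UGT84A1 -0.49, and UGT76C2 had -1.21 and UGT76C1 -0.09. UGT73C7 and UGT84A1 were dim on every array, and UGT76C1 and UGT76C2 were both above 32 on every array. Near-identical family members can share probe signal, which was not tested. Of the 47 probe sets 0 carry the platform's suffix for several transcripts, but the rule had already left out probe sets that name several genes. That count thus does not show that no signal is shared.

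By family, the number after UGT, the risers in WT were spread over UGT71 (3 of 9 genes), UGT73 (2 of 7), UGT76 (2 of 8), UGT84 (2 of 5) and UGT87 (1 of 1). The fallers were 1 each in UGT73, UGT76 and UGT78 (of 3). In UGT72 (4 genes), UGT74 (3), UGT80 (1), UGT85 (5) and UGT88 (1) none was called in WT. UGT76 thus held genes that rose in WT, UGT76B1 and UGT76E12, and a gene that fell, UGT76C2. Array-wide, the adjusted test called 15.7% of probe sets higher and 14.8% lower in this comparison. At such shares a family of few genes can easily hold no called gene. Whether families differ in their response was not tested, so these counts are a description. In UGT85, 4 of the 5 genes had a mean at or above 32, and their log2 fold changes ran from -0.33 to 0.43 in WT and from -0.36 to 0.74 in OE.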

How the data were processed

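The authors deposited 1 linear intensity per probe set and array for 8 ATH1 arrays. Per the labels and methods, a commercial service made biotin-labelled cRNA, hybridized it and scanned the arrays. The software that summarized and normalized the intensities is not given in the sources used here. Labels and methods name different RNA extraction reagents.

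Here 64 array controls were left out, log2 was taken of the other 22746 probe sets, none of which had a value under 1, and a mean for each of the 4 groups was fitted with lmFit and eBayes of limma 3.58.1 (R 4.3.3), with 4 residual degrees of freedom. The comparisons were OE vs WT at 0 d and 5 d, 5 d vs 0 d in each genotype, and the interaction. The fit was also run on simulated data with known changes and, for each probe set, the same scatter in every group. The OE 5d pair scattered more than the others, so the simulation does not cover the comparisons that use OE 5d. Arrays have no depth, and 2 arrays per group limit the precision. Figures were drawn with matplotlib 3.10.9.

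Probe sets were named from the platform annotation, in which 503 had several symbols and 8730 were not listed. No gene needed the rule of taking its brightest probe set. The files name no genome build, so no coordinates and no sequences are given, and the RefSeq table served for names and neighbours.

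Genes named with values were UGT76B1, up to 6 of the largest called rises and falls per drought comparison, up to 4 each way past the study's threshold in comparisons of genotypes, the 4 brightest, members of the role lists, and the genes most like UGT76B1. All 7 genes past that threshold in the interaction, and other members, were named with their values seen. The genes, lists and tests were chosen with earlier results of these data known. Alternatives were quantile normalization, median centring, the 4 arrays of a comparison alone, a replicate block, a floor of 32, leaving out probe sets of mean log2 under 5, a trended robust eBayes, the study's threshold, every probe set of a gene, and each array left out in turn.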

Additional observations from a re-analysis of the deposited data

How the results depend on the processing

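With 2 arrays per group, single arrays decided several counts. In the order genotypes compared at 0 d, genotypes compared at 5 d, interaction, higher and lower in OE drought, and higher and lower in WT drought, the main counts of UGT genes were 0, 0, 0, 2, 4, 10 and 3. Leaving out 1 array at a time gave 0 to 1, 0 to 8, 0 to 6, 0 to 7, 0 to 4, 6 to 13 and 1 to 5. Without WT 0d replicate 1 the WT counts were 7 and 1, without WT 0d replicate 2 they were 6 and 2, and without WT 5d replicate 2 they were 8 and 1. UGT71B6, UGT71C4, UGT73D1, UGT76B1, UGT84A3, UGT87A2 and UGT76C2 were called in WT drought in all 8 of these fits. The fit without WT 5d replicate 1 gave 1 higher in OE drought, as did that without WT 5d replicate 2.

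At the study's threshold the counts were 0, 3, 7, 2, 2, 5 and 2. With intensities under 32 set to 32 they were 0, 1, 1, 0, 1, 4 and 2, and with probe sets of mean log2 under 5 left out 0, 0, 0, 1, 4, 4 and 4. Of the 10 rises in WT the first of these settings kept 4 and the second 3, and both remove or level dim genes by construction. The 4 arrays of a comparison alone gave 1, 0, 0, 1, 11 and 4, without a value for the interaction. For the floor, the mean log2 filter and the 4 arrays alone, the shares of all probe sets called are not given here. Median centring and quantile normalization left the counts within 1 of the main ones, and the trended robust eBayes gave the main counts. Taking every member probe set could not change a count, since each of the 47 genes has 1 probe set.

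The replicate numbers were not shown to pair the samples, since with 2 replicates the correlations of the replicate differences between groups were 0.014 to 0.223. A replicate block gave 0, 0, 0, 2, 4, 10 and 3. Of 388 recomputed values of single genes, 335 stayed on the same side of the threshold, 38 no longer passed, 15 newly passed and 0 reversed. Some of the 335 became 0 with the floor of 32, such as UGT76B1 in OE drought, and so kept no direction. The replicate block, the trended robust eBayes and the 4 arrays alone leave a fold change as it was by construction. There it could not reverse. The causes of the changed calls were otherwise not tested.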
